A study of Mus musculus with 28 samples.

Results

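The regions described are ChIP peaks of Ty1-tagged MOZ-TIF2 that were listed in the second of 2 chromatin immunoprecipitation (ChIP) replicates and not in the first. They are the replicate 2 peaks that overlap no replicate 1 peak by 1 bp, and they number 1280 of the 4564 replicate 2 peaks (28.0%, 95% Wilson interval 26.8 to 29.4), or of 8240 peaks in both lists. The other 3284 replicate 2 peaks overlapped a replicate 1 peak and are called shared, and 373 of 3676 replicate 1 peaks had no replicate 2 partner (10.1%, 9.21 to 11.2). All cells came from C57Bl/6 mouse bone marrow as c-Kit+ haematopoietic stem and progenitor cells (HSPCs). For ChIP, such cells were transduced by retrovirus with Ty1.MOZ-TIF2, sorted for GFP and replated serially in methylcellulose. RNA was read in 3 groups of 2 libraries each: Ty1.MOZ-TIF2 cells sorted for GFP and grown 4 days in cytokine medium, empty-vector cells handled the same way (called differentiated), and untransduced c-Kit+ cells taken fresh. The ChIP and RNA libraries of MOZ-TIF2 cells thus came from different cultures, and transduction and culture cannot be told apart from each other in any comparison with fresh cells. No label says that the libraries of a group came from separate mice or cultures, so p-values measure only the spread between these samples, which may be technical.

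MOZ-TIF2 is a fusion of the histone acetyltransferase MOZ (KAT6A) with the nuclear receptor coactivator TIF2 (NCOA2), found in acute myeloid leukaemia. It recruits the acetyltransferase CBP through its TIF2 part and gives committed myeloid progenitors the ability to self-renew. MOZ binds chromatin at acetylated histones and at unmethylated CpG-rich promoters, and the Ty1 tag is a short epitope by which the fusion can be pulled down.

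The antibody in the replicate 2 label carries the catalogue number that the labels also give for ChIP of acetylated histone (H3K9/14ac), while the replicate 1 label names another number. Which antibody gave the replicate 2 list, and hence its peaks without a partner, was not tested, and the acetyl-histone and input samples were not analysed here. The lists give intervals without a height or a score on a grid of 50 bp, so the strength of a peak is unknown and width is the only size that can be given.

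The promoter sequences of 4 genes are examples of what lay under peaks found in replicate 2 alone. They are the 4 of 7 named genes with a whole RefSeq start window inside such a peak whose RNA also differed between MOZ-TIF2 and fresh cells. The 250 bases before the start are printed 5' to 3' on the gene's strand (RefSeq, GRCm38.p6). Capitals mark matches on either strand to GGGCGG, the GC box bound by Sp1-type factors, or to CCAAT, the box bound by NF-Y. No other motif searched matched in them.
Fos promoter, chr12:85473640-85473889, plus strand: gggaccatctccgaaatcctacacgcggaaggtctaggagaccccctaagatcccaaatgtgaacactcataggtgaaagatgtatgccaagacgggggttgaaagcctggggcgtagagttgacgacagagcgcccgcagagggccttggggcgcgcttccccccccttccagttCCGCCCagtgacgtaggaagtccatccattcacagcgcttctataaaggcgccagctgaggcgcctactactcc
Pkdcc promoter, chr17:83215033-83215282, plus strand: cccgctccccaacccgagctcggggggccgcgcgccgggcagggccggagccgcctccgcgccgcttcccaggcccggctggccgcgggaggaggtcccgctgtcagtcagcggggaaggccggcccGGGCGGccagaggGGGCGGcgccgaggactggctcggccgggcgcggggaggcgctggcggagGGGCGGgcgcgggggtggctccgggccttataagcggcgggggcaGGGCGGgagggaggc
Smad3 promoter, chr9:63757995-63758244, minus strand: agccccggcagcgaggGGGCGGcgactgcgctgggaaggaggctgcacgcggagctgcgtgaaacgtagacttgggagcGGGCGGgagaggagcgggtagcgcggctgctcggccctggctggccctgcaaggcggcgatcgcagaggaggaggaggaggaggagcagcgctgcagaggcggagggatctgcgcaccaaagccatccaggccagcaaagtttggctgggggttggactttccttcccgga
Pcna promoter, chr2:132253181-132253430, minus strand: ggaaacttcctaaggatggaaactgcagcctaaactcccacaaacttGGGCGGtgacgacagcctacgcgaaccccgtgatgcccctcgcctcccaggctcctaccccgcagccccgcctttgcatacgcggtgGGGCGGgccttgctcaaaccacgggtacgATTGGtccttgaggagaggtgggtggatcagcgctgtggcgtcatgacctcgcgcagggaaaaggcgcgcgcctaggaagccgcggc
Fos encodes a subunit of the AP-1 transcription factor, Pkdcc a secreted tyrosine kinase, Smad3 a transducer of TGF-beta signals and Pcna the sliding clamp of DNA replication. The Fos stretch holds 1 GC box and 15 CpG dinucleotides at 58.4% GC. The Pkdcc stretch is the richest of the 4 at 83.2% GC, with 36 CpG and 4 GC boxes. The Smad3 stretch holds 22 CpG and 2 GC boxes, and the Pcna stretch 22 CpG, 2 GC boxes and 1 CCAAT box. Their peaks are 1850, 1150, 1550 and 1650 bp wide. The named genes whose windows are not printed, Hist1h3d, Rpl4 and Hnrnpa1, held less GC over 300 bases (34.7%, 40.7% and 48.3%). The Hist1h3d and Rpl4 windows held no GC box, so the 4 printed stretches do not stand for all such windows.

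The start windows near the unpartnered peaks as a whole were CpG-rich. RefSeq windows of 300 bases (250 before and 50 after a start) lay within 1 kb of these peaks, and of no other Ty1 peak, for 1292 starts of 1122 genes. Their median GC content was 62.8% (quartiles 57 and 68.3), against 52.7% over all 32817 windows. They held a median of 24 CpG against 7, and the ratio of observed to expected CpG was 0.817 against 0.383. Windows at shared peaks lay further from the whole table, with a median of 66.0% GC and 28 CpG.

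Motif matches were counted in the same windows. GGGCGG was present in 72.0% of windows near unpartnered peaks (69.5 to 74.4), 73.5% of those near shared peaks and 35.6% of all windows. CACGTG, the E-box of Myc and USF factors, stood at 11.4%, against 11.8% near shared peaks and 7.15% of all windows. For GCGCATGC, part of the NRF1 site, the shares were 6.35%, 6.16% and 2.71%. For TGACGTCA, the cyclic AMP response element, they were 3.33%, 3.74% and 1.79%. Near replicate 1 peaks without a partner these motifs stood at 11.1%, 9.25% and 1.8%. The excess over all windows was thus found near shared peaks too. The myeloid motifs showed no such excess: GAGGAAGT, an ETS site of the PU.1 type, was in 3.56% against 3.20% of all windows, and TGTGGT, the RUNX core, in 12.2% against 16.8%. CCAAT was in 39.9% near unpartnered peaks, 37.4% of all windows and 33.6% near shared peaks. Matches were counted on both strands, no motif contains another, and a match is a description, not a bound site.

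Peaks found in replicate 2 alone were narrow. Their median width was 450 bp (quartiles 300 and 750, range 250 to 5350), against 800 bp for shared peaks (500 and 1400, up to 23800). At most 300 bp wide were 381 of them (29.8%, 27.3 to 32.3), against 7.76% of shared peaks, and 39 exceeded 2000 bp (3.05%) against 13.2%. Peaks of replicate 1 without a partner were narrower still, with a median of 350 bp. The share of replicate 2 peaks without a partner fell from 59.9% of those up to 300 bp (381 of 636) through 39.3% and 23.1% to 8.26% of those over 2000 bp (39 of 472). A wider interval has more bases on which an overlap of 1 bp can fall, so width is not independent of the rule.

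**Figure D1:**
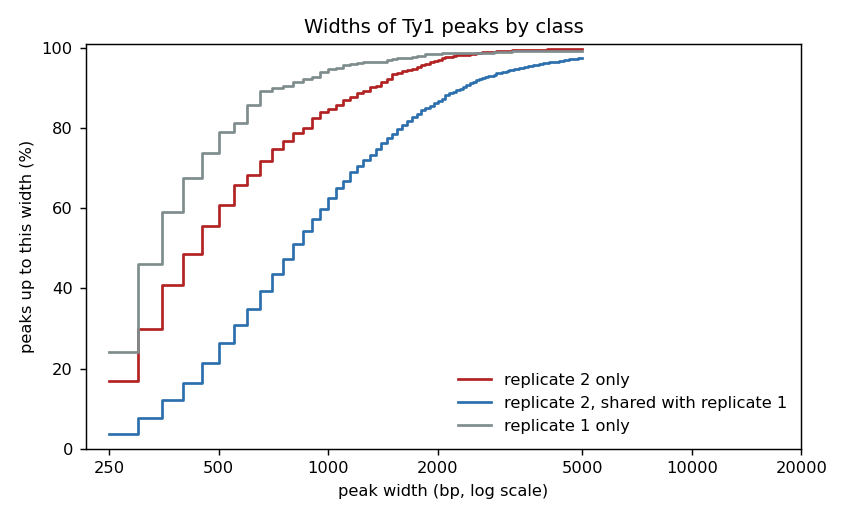
Cumulative share of peaks (%) against peak width (bp, log scale) for the 1280 replicate 2 peaks without a partner, the 3284 shared replicate 2 peaks and the 373 replicate 1 peaks without a partner. The curve of the unpartnered replicate 2 peaks lies left of the shared peaks, with medians of 450 and 800 bp.

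Most unpartnered peaks were far from any replicate 1 peak. The median gap was 94450 bp (quartiles 32875 and 236025), with 14 peaks within 1 kb of a replicate 1 peak and 62 within 5 kb. Just outside the rule, 14 shared peaks overlapped a replicate 1 peak by 50 bp, the smallest overlap seen, among them peaks at the starts of Cct6b, a chaperonin subunit gene, and Brip1, a DNA repair helicase gene. Just inside it, 6 peaks touched a replicate 1 peak without overlap, among them a 300 bp peak 202 bp from the start of Mrpl51, a mitochondrial ribosomal protein gene, and a 1400 bp peak in Bbc3, which encodes the apoptosis inducer PUMA.

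Gene starts lay under or beside most of the unpartnered peaks. Of the 1242 on chromosomes for which starts were listed, 308 covered a start (24.8%, 22.5 to 27.3) and 599 more lay within 1 kb of one (48.2%). Shared peaks covered a start in 40.5% of cases, and replicate 1 peaks without a partner in 24.1%. Another 269 lay inside a gene over 1 kb from a listed start (21.7%) and 66 between genes (5.31%, 4.2 to 6.7, against 2.2% of shared peaks). Between genes lay 4.16% of replicate 1 peaks without a partner (2.53 to 6.74). A listed start lay within 5 kb of 949 of the 1242 (76.4%, 74 to 78.7), against 82.5% of shared peaks. The list of starts lacks 3884 of 21376 protein-coding genes, and 135 of the 269 were within 1 kb of an end of such a gene. Among these were the peaks at Spi1, Ahr, Dusp4, Plag1 and Kat6a, each of which covers an end of its gene. The X chromosome held 28 unpartnered peaks (2.19% of the 1280, 1.52 to 3.14), against 1.16% of shared peaks (0.844 to 1.58). Of replicate 1 peaks without a partner it held 2.14% (1.09 to 4.17).

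At starts the peaks sat on the downstream side. Of 883 unpartnered peaks centred within 1 kb of a start, 757 were centred downstream (85.7%, 83.3 to 87.9), with a median centre 262 bp into the gene (quartiles 124 and 392). The same side held 85.1% of shared peaks (median 318 bp) and 86.4% of replicate 1 peaks without a partner (218 bp). Starts on both strands lay within 1 kb of 213 unpartnered peaks, 23.5% of those with a start that near. The order of the 3 medians is that of the classes' median widths.

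**Figure D2:**
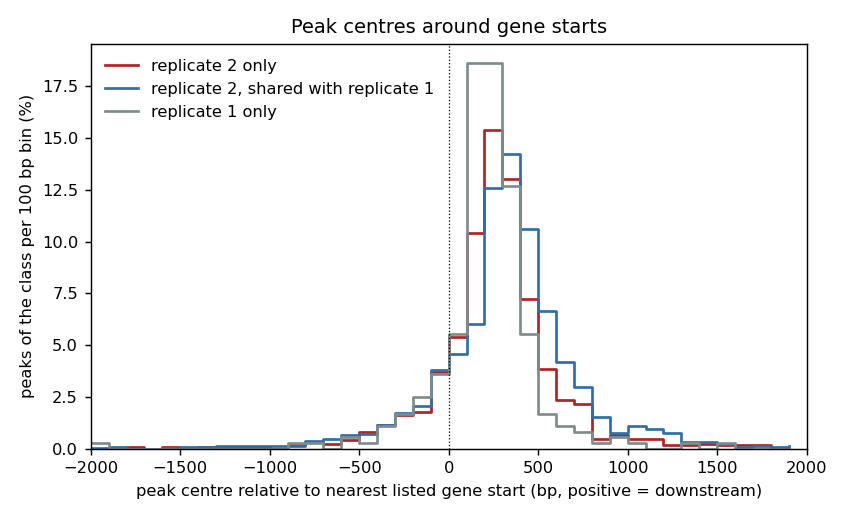
Share of each class of peaks (%) per 100 bp bin, by the distance of the peak centre from the nearest listed gene start (bp, positive downstream). All 3 classes peak between the start and 500 bp downstream, where 51.4% of the unpartnered replicate 2 peaks are centred, against 9.02% in the 500 bp upstream.

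Place and width both went with the lack of a partner. By place, 19.2% of replicate 2 peaks covering a start had no partner (308 of 1600), 31.9% of those within 1 kb of one, 33.0% of those elsewhere in genes and 48.5% of those between genes (66 of 136, 40.3 to 56.9). Among peaks of 1000 to 2000 bp, 12.4% with a start within 1 kb had no partner (10.2 to 15) against 31.6% without such a start (25.3 to 38.5). Among those up to 300 bp the shares were 58.6% and 62.7%, and among those over 2000 bp 5.97% and 13.4%, with intervals that overlapped in both. They also overlapped in the width classes between 300 and 1000 bp. Peaks without such a start include some at genes whose start is not listed.

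**Figure D3:**
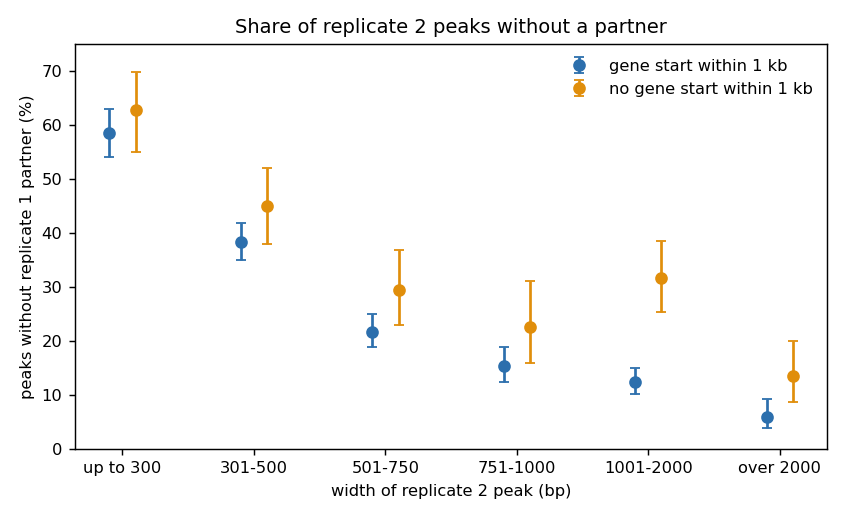
Share of replicate 2 peaks without a replicate 1 partner (%) by peak width (bp), for peaks with and without a listed gene start within 1 kb. Bars are 95% Wilson intervals, which cover counting error only. The share falls with width in peaks near a start, from 58.6% to 5.97%, and is 31.6% at 1000 to 2000 bp away from starts.

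Most of the 8 widest unpartnered peaks lay in gene bodies or among gene copies. A peak of 5250 bp (chrX:12086852-12092101) lay in Bcor, a corepressor gene of BCL6, and one of 4550 bp (chr1:91052702-91057251) covered a start of Lrrfip1. Others of 3950 and 3250 bp lay in Rabgap1l, a Rab GTPase-activating protein gene (chr1:160304702-160308651), and in Ankrd28, a phosphatase 6 subunit gene (chr14:31778302-31781551). Ankrd28 RNA stood at 755 and 622 CPM (counts scaled to library size by edgeR's TMM method) in MOZ-TIF2 cells, 60.6 and 91.8 in fresh and 152 and 111 in differentiated cells. MOZ-TIF2 cells were thus above both other groups without overlap (log2 difference 3.18 from fresh, edgeR adjusted p = 0.00312, and 2.39 from differentiated, adjusted p = 0.00392). Bcor was at 125 and 182 CPM against 70.5 and 71.6 in fresh and 179 and 164 in differentiated cells (1.11 from fresh, edgeR adjusted p = 0.0253). The Ankrd28 calls held in each of the 6 fits without 1 library, while that of Bcor was lost without MOZ-TIF2 replicate 2 and without either fresh library.

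Unpartnered peaks were also dense in a few stretches of gene copies. On chromosome 1, 12 of them lay in the C130026I21Rik region (chr1:84988002-85456351), where replicate 2 listed 26 peaks in all and replicate 1 listed 18. The widest of all, 5350 bp (chr1:85232752-85238101), is there, 50 bp from a replicate 1 peak. Another 12 (chr4:147195302-147428401), in a cluster of zinc finger genes with Zfp978 and Zfp988, stood in a stretch where replicate 1 listed 0 peaks. Zfp978 had 0 counts in all 6 RNA libraries and Zfp988 at most 0.43 CPM. Stretches with 8 and 6 such peaks lay on chromosome 8 among predicted genes and the defensin gene Defb33. Reads from near-identical copies can be placed on any of them, so peaks in these stretches are uncertain.

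Other dense stretches were rich in genes. On chromosome 1, 8 unpartnered peaks lay between the start of Usp40, a deubiquitinase gene, and Trpm8 (chr1:88008202-88299601, with 3 peaks of replicate 1). The stretch holds the Ugt1a cluster of glucuronosyltransferases, but the peaks were not spread through it. After the peak at Usp40 the next lay 3143 bp from the start of Ugt1a1 (chr1:88215102-88216901). The others were nearest the listed starts of Mroh2a, Trpm8 and Hjurp, a centromere chaperone gene. Ugt1a7c was at 46.1 and 118 CPM in MOZ-TIF2 cells and at 27.1 and 17.8 in differentiated cells (log2 1.87, edgeR adjusted p = 0.0319), a call lost in 5 of the 6 fits without 1 library. Ugt1a genes share exons, so its estimate is uncertain. On chromosome 10, 7 lay in a stretch with 11 replicate 1 peaks, and 6 of the 7 were at the starts of Cdc34, R3hdm4, Cnn2, Polr2e, Sbno2 and Cbarp, around the neutrophil granule genes Prtn3 and Elane, whose own peaks were shared.

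Genes near unpartnered peaks were mostly expressed. A gene was taken as near where an end of it lay within 5 kb of such a peak and no other Ty1 peak lay that close. This gave 1361 genes, of which 1323 had 1 such peak and 38 had 2, and 1264 passed the filter on low counts. They are 4.57% of the 29759 located genes and, for protein-coding genes, 6.24% of 21227, against 12.5% and 17.1% near shared peaks. Of 1324 protein-coding ones 1252 passed (94.6%, 93.2 to 95.7), against 96.8% near shared peaks and 51.6% of those with no Ty1 peak. For 876 of the 1264 tested genes a listed start of their own was within 1 kb of the peak. Library totals ran from 12397443 to 34463785 counts, lowest in the fresh libraries, and r between the log2 CPM of replicates from 0.9585 to 0.9852.

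In MOZ-TIF2 against fresh cells, of the 1264 tested genes near unpartnered peaks 168 were higher (13.3%) and 103 lower (8.15%) by edgeR at an adjusted p of 0.05. Over all 15224 tested genes 11.3% were higher and 12.4% lower, so at this distance the share higher was near the background and the share lower was below it. With genes within 50 kb in place of 5 kb, 168 were higher and 183 lower of 1518 (11.1% and 12.1%), both near the background, so the lower share of falls did not hold at that distance. That set leaves out genes with another Ty1 peak within 50 kb, so it does not simply extend the 5 kb set. The share lower was 7.38% of genes within 1 kb, 7.6% of those with a start within 1 kb and 7.66% with genes beside another Ty1 peak kept. For the 1264 genes the median log2 difference was 0.04, beside 0.00 over all genes. Near shared peaks 17.8% were higher and 4.9% lower, and without any Ty1 peak 8.78% and 16.7%. The filter on low counts passes genes that are high in any one group, and the differences between the classes were not tested. Of the 168 higher genes 102 had their own start within 1 kb of the peak, and of the 103 lower genes 67.

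**Figure D4:**
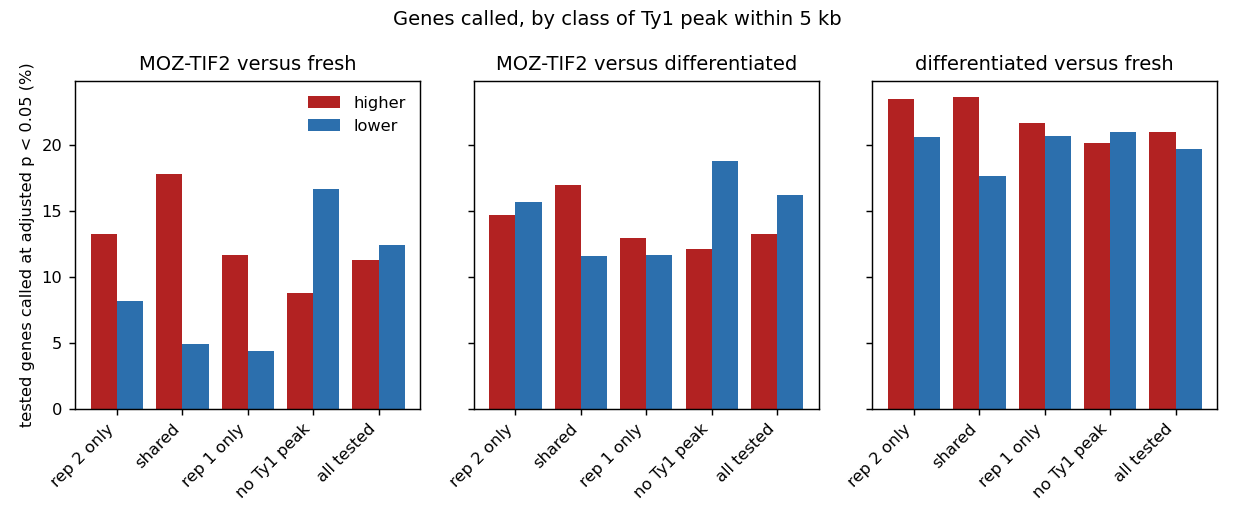
Share of tested genes (%) called higher (red) or lower (blue) by edgeR at an adjusted p under 0.05 in each comparison, by the class of Ty1 peak within 5 kb of a gene end. In MOZ-TIF2 against fresh cells, genes near unpartnered replicate 2 peaks stand at 13.3% higher and 8.15% lower, all tested genes at 11.3% and 12.4%.

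These counts depended on the fresh libraries, and so did the counts over all tested genes. Called near genes numbered 271, with 23.7% of all tested genes called in either direction. Without fresh replicate 1 the called near genes were 14, without fresh replicate 2 they were 18, and without MOZ-TIF2 replicate 2 they were 171, all within fits of 5 libraries. All 14 and all 18 were among the 271, and no log2 difference among the 271 changed sign. Of 31 named genes called in this comparison, 8 were called in each of the 6 fits without 1 library, among them Dixdc1, Fdps, Fgd4, Fyn, Gp1ba, Hmgcs1 and Sept8. The other 23 named calls were lost without at least 1 of the 2 fresh libraries.

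Sterol synthesis genes were among those that rose. The list of cholesterol genes held 16, of which 3 were near an unpartnered peak alone and 6 others near a shared peak. Of all coding genes 6.24% and 17.1% were. All 3 rose against fresh cells, as did all 16 of the list, beside 11.3% of all tested genes. The list's median log2 difference was 3.13, beside 0.00 over all genes, and 10 of the 16 were still called with fresh replicate 1 left out and 10 with fresh replicate 2 left out. Differentiated cells were higher than fresh ones in 15 of the 16 as well, beside 21.0% of all tested genes. Fdps, the farnesyl diphosphate synthase gene, was at 565 and 721 CPM in MOZ-TIF2 cells, 52.4 and 44.1 in fresh and 71.3 and 105 in differentiated cells. Both MOZ-TIF2 libraries stood above all others (log2 3.74 ± 0.309 SE from fresh, edgeR adjusted p = 0.00182). Its peak (chr3:89101352-89101801) lay 166 bp inside the upper end of the gene, whose start is not listed.

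Hmgcs1, the gene of cytosolic HMG-CoA synthase, read 191 and 193 CPM in MOZ-TIF2, 32.6 and 31.6 in fresh and 171 and 168 in differentiated cells (log2 2.58, edgeR adjusted p = 0.00137 from fresh). Differentiated cells lay just below the MOZ-TIF2 libraries, and the difference between those groups did not pass the test (0.18, edgeR adjusted p = 0.496). The Hmgcs1 peak lay 151 bp from its start.

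Fgd4, Pkdcc and Plag1, each with a peak at a start or an end of the gene, rose too. Fgd4, an exchange factor gene for the GTPase Cdc42, was at 205 and 303 CPM in MOZ-TIF2, 16.2 and 22.1 in fresh and 11.8 and 15.4 in differentiated cells (log2 3.73 ± 0.324 SE from fresh, edgeR adjusted p = 0.00204). Pkdcc, whose promoter is printed above, was at 17.2 and 27.0 against 1.18 and 1.05 in fresh and 3.49 and 4.6 in differentiated cells (4.30, edgeR adjusted p = 0.00297). Plag1, a zinc finger oncogene of the embryonal growth programme, was at 9.45 and 20.6 against 0.959 and 1.4 (3.66, edgeR adjusted p = 0.0097), with its peak across the upper end of the gene. In each of these genes both MOZ-TIF2 libraries exceeded all 4 others.

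For several of the largest differences the peak lay at the start of a neighbouring gene instead. Dixdc1, a Wnt pathway gene, was at 22.0 and 11.8 CPM against 0.148 and 0.175 in fresh cells (log2 6.66, edgeR adjusted p = 0.00236). Its peak was 3051 bp beyond the gene, 79 bp from the start of Dlat, a pyruvate dehydrogenase subunit gene, which read 73.2 and 60.7 against 74.6 and 83.8 (-0.24, edgeR adjusted p = 0.417). Mst1, encoding the hepatocyte growth factor-like ligand MSP, was at 24.7 and 57.2 against 0.664 and 0.466 (6.18, edgeR adjusted p = 0.00312). Its peak covered the start of Rnf123, a ubiquitin ligase gene at 37.9 and 55.3 against 79.1 and 70.9 (-0.69, edgeR adjusted p = 0.0883).

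The same held for a glycolytic and a purinergic gene. Aldoc, which encodes aldolase C, was at 18.3 and 78.0 CPM in MOZ-TIF2, 1.4 and 0.815 in fresh and 47.6 and 54.3 in differentiated cells (log2 5.45 from fresh, edgeR adjusted p = 0.00874). Its MOZ-TIF2 libraries lay on either side of the differentiated ones, and its peak was 180 bp from the start of Pigs, a GPI transamidase subunit gene whose difference was 0.64 (edgeR adjusted p = 0.068). P2rx3, encoding an ATP-gated ion channel, was at 8.55 and 27.2 against 1.7 and 1.69 in fresh cells (3.40, edgeR adjusted p = 0.017). Its peak covered the start of Ssrp1, a FACT histone chaperone subunit gene, and reached the upper end of P2rx3. Ssrp1 read 302 and 382 against 530 and 537 (-0.64, edgeR adjusted p = 0.131).

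Genes of other blood lineages were among those that fell against fresh cells. Hemgn, a gene of erythroid and stem cells, was at 0.355 and 0.0875 CPM in MOZ-TIF2 against 102 and 111 in fresh cells (log2 -8.86, edgeR adjusted p = 0.00454). Its peak covered the start of Trmo, a tRNA methyltransferase gene, at 10.1 and 7.96 against 9.22 and 8.61 (0.02, edgeR adjusted p = 0.979). Gp1ba, which encodes a platelet glycoprotein, was at 0.0546 and 0.117 against 17.6 and 17.1 (-7.59, edgeR adjusted p = 0.000919), and its peak covered the start of the ubiquitin ligase gene Rnf167 (-0.18, adjusted p = 0.637). Alox12, the platelet lipoxygenase gene, was at 0.109 and 0.117 against 25.7 and 15.6 (-7.45, edgeR adjusted p = 0.0189), with its peak 1506 bp beyond the gene, and this call was also lost without either MOZ-TIF2 library.

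Marker levels went with these differences. Summed CPM of 5 erythroid markers was 4.59 and 5.1 in MOZ-TIF2 cells, 3605 and 3561 in fresh and 177 and 235 in differentiated cells, with Car1 among those at 0 in both MOZ-TIF2 libraries. Of 3 megakaryocyte markers, Gp1ba among them, the sum was 0.819 and 1.05 in MOZ-TIF2, 222 and 150 in fresh and 2187 and 2407 in differentiated cells, and none was at 0 in both libraries of a group. Differentiated cells were above fresh ones in Gp1ba and in Itga2b (1760 and 1764 against 119 and 77.1). In Pf4 they were below (14.2 and 36 against 86.2 and 56.2). The part of these cell types in the results was not tested. In such bulk libraries fewer cells of a type and less RNA per cell cannot be told apart.

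Other genes that fell had the peak at their own start. Fos was at 1.5 and 5.63 CPM in MOZ-TIF2, 769 and 612 in fresh and 38.5 and 4.15 in differentiated cells (log2 -7.60 from fresh, edgeR adjusted p = 0.0134). Both fresh libraries stood far above the other 4, and the differentiated libraries spread widely. Its 1850 bp peak reached from upstream over the start. Of the 16 immediate early genes listed, 1 was near an unpartnered peak and 8 near a shared one, beside 6.24% and 17.1% of all coding genes. In this list 7 of the 16 fell and 0 rose, beside 12.4% lower and 11.3% higher over all tested genes. Their median log2 difference was -2.14, beside 0.00 over all genes. The number that fell was 4 without MOZ-TIF2 replicate 1, 11 without MOZ-TIF2 replicate 2, 1 without fresh replicate 1 and 2 without fresh replicate 2.

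Fyn, a Src family kinase gene, was at 2.05 and 1.69 CPM against 38.8 and 35.4 in fresh and 29.0 and 35.7 in differentiated cells (log2 -4.31 ± 0.271 SE from fresh, edgeR adjusted p = 0.00095). MOZ-TIF2 cells were below both other groups, with a peak 203 bp from the start. Bcl6, a transcriptional repressor gene, was at 0.437 and 1.52 against 12.8 and 12.3 (-3.68, edgeR adjusted p = 0.015), with its peak 601 bp from a start. Sept8, a septin cytoskeleton gene with a peak across a start, was at 18.8 and 29.6 against 198 and 243 (-3.19, edgeR adjusted p = 0.00349). Sept4, another septin gene, was at 0.137 and 0.175 against 11.4 and 11.5 (-6.16, edgeR adjusted p = 0.011), with the peak 859 bp beyond its upper end.

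**Figure D5:**
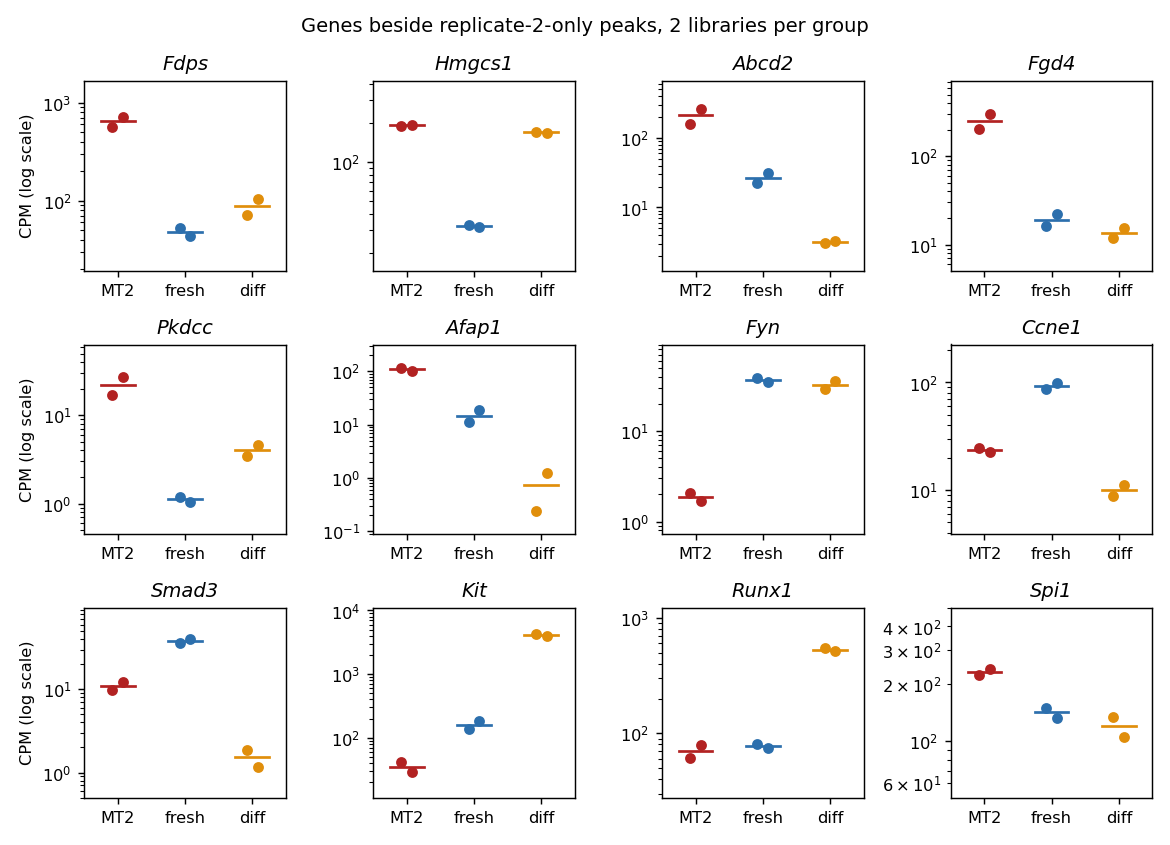
CPM (log scale, a scale of its own in each panel) of 12 genes beside unpartnered replicate 2 peaks in MOZ-TIF2 (MT2), fresh and differentiated (diff) cells. Points are libraries, 2 in each group, and bars are means. MOZ-TIF2 cells stand above both other groups in Fdps, Hmgcs1, Abcd2, Fgd4, Pkdcc, Afap1 and Spi1 and below both in Fyn and Kit. Hmgcs1 did not pass the test against differentiated cells, nor Spi1 against fresh cells.

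In MOZ-TIF2 against differentiated cells, 186 of the 1264 near genes were higher (14.7%) and 199 lower (15.7%), against a background of 13.3% and 16.2% over all tested genes. Both shares were near the background, and the median log2 difference was 0.07, beside 0.03. Near shared peaks 17.0% were higher and 11.6% lower. The 385 called near genes (of all tested genes 29.5% were called in either direction) became 223 without differentiated replicate 1, 214 without fresh replicate 1 and 206 without fresh replicate 2. Of 37 named genes called, 31 were called in each of the 6 fits without 1 library, and those lost in at least 1 were Bcl6, Coasy, Ddx56, Il12a, Plag1 and Spi1. Calls over all tested genes also fell without differentiated replicate 1 and without either fresh library. The fresh libraries enter this comparison through the shared estimate of the spread and the filter on low counts, since without one of them 16175 or 16181 genes were tested.

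Among those higher than in differentiated cells were genes at which fresh cells lay between MOZ-TIF2 and differentiated cells. Afap1, an actin filament adaptor gene with its peak 333 bp from the start, was at 117 and 102 CPM in MOZ-TIF2, 11.1 and 18.6 in fresh and 0.239 and 1.24 in differentiated cells (log2 7.13 from differentiated, edgeR adjusted p = 0.00152). Abcd2, a peroxisomal fatty acid transporter gene, was at 158 and 262, 22.1 and 31.7, and 3.06 and 3.32 (6.04, edgeR adjusted p = 0.000426). Dgkg, a diacylglycerol kinase gene with a peak over its start, was at 18 and 53, 4.28 and 5.59, and 1.58 and 0.415 (5.18, edgeR adjusted p = 0.0079). The 3 groups did not overlap in any of these genes.

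Rgcc, a regulator of the cell cycle, did not pass the test against fresh cells (log2 -0.42, edgeR adjusted p = 0.318). It read 35.2 and 33.2 CPM in MOZ-TIF2, 40.0 and 51.4 in fresh and 0.621 and 1.07 in differentiated cells (log2 5.31 from differentiated, edgeR adjusted p = 0.000481). Tst, encoding the mitochondrial sulfurtransferase rhodanese, was at 52.6 and 33.3 against 0.717 and 1.28 (5.40, edgeR adjusted p = 0.000751). Its peak covered the start of Mpst, the gene of a related sulfurtransferase, which was higher as well at 46.5 and 68.1 against 10.3 and 13.3 (2.28, edgeR adjusted p = 0.00296). P2rx3 had 1 count in each differentiated library, so its ratio is given with a counting interval, 438 (121 to 3617).

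Genes lower than in differentiated cells included mast cell and platelet genes. Kit, the stem cell factor receptor gene on which the cells were selected, was at 41.0 and 29.0 CPM in MOZ-TIF2, 138 and 181 in fresh and 4269 and 4003 in differentiated cells (log2 -6.89 ± 0.386 SE, edgeR adjusted p = 0.000318). Its peak lay 111 bp from its start (chr5:75575102-75575701). Of 15 mast cell genes 1, Kit, was near an unpartnered peak and 0 near a shared peak. Of all coding genes 6.24% and 17.1% were. In this list 14 of the 15 were lower, beside 16.2% of all tested genes (median log2 difference -11.66, beside 0.03 over all genes). The summed CPM of 6 mast cell markers was 4.89 and 4.26 in MOZ-TIF2, 39.5 and 36.3 in fresh and 52677 and 75439 in differentiated cells, none of the markers at 0 in both libraries of a group, and their part in the result was not tested. The label of these cells says differentiated and names no lineage.

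Gp1ba was at 413 and 607 CPM in differentiated cells, above both fresh libraries (log2 -12.47 in MOZ-TIF2 against differentiated, edgeR adjusted p = 0.000212). Cacnb4, a calcium channel subunit gene, had 1 count in each MOZ-TIF2 library against 66.9 and 38.1 CPM in differentiated cells, a ratio of 1780 (counting interval 492 to 14704). Its peak was 23 bp from the start of Arl5a, a small GTPase gene that was lower as well, at 59.8 and 42.3 against 228 and 320 CPM (-2.42, edgeR adjusted p = 0.00348). Rab37, a Rab GTPase gene of secretory granules, was at 1.91 and 8.2 against 346 and 308 (-6.02, edgeR adjusted p = 0.00309), and Slc9a3r1, 211 bp from whose start the peak lay, at 116 and 109 against 450 and 595 (-2.22, edgeR adjusted p = 0.00207).

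Cetn4, a centrin gene, was at 0.492 and 0.963 CPM against 33.6 and 74.1 (log2 -6.21, edgeR adjusted p = 0.00118), with a peak between it and Bbs12, a ciliary chaperonin gene, at 2.24 and 2.65 against 13.0 and 15.8 (-2.56, edgeR adjusted p = 0.00626). Here the gene at the peak and its neighbour differed in the same direction, as they did at Tst, Cacnb4 and Rab37. At Dixdc1, Mst1, P2rx3 and Gp1ba, also called against differentiated cells, the gene at the peak did not pass the test. Dlat differed by log2 0.63 (edgeR adjusted p = 0.0652) and Rnf123 by 0.19 (edgeR adjusted p = 0.591). For Ssrp1 it was 0.77 (edgeR adjusted p = 0.0774) and for Rnf167 -0.22 (edgeR adjusted p = 0.573). Ahr, the aryl hydrocarbon receptor gene, was at 2.43 and 2.95 against 137 and 166 (-5.82, edgeR adjusted p = 0.000313), its peak across the upper end of the gene. Dusp4, a MAP kinase phosphatase gene, was at 0.819 and 2.33 against 37.6 and 69.1 (-5.08, edgeR adjusted p = 0.00299), and Kcna3, a potassium channel gene with its peak over the start, at 0.41 and 0.117 against 12.9 and 11.3 (-5.49, edgeR adjusted p = 0.00384).

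In differentiated against fresh cells, 297 of the 1264 near genes were higher (23.5%) and 260 lower (20.6%), with a background of 21.0% and 19.7%. Both shares were near the background, in a comparison of cells that carry no MOZ-TIF2, and the median log2 difference was 0.05, beside -0.03. Comparisons of MOZ-TIF2 cells share these libraries, so values are set side by side without a measure of likeness. In the fits without 1 library given next, calls over all tested genes fell as well. The 557 called near genes (40.7% of all tested genes were called in either direction) became 304 without differentiated replicate 1, 99 without fresh replicate 1 and 128 without fresh replicate 2. Of 45 named genes called, 21 were called in each of the 6 fits without 1 library.

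Chn2, a Rac GTPase-activating protein gene, was at 118 and 154 CPM in differentiated, 6.79 and 5.18 in fresh and 5.74 and 5.63 in MOZ-TIF2 cells (log2 4.51, edgeR adjusted p = 0.000624). Ndst2, encoding the heparan sulfate and heparin sulfotransferase of mast cells, was at 561 and 675, 27.2 and 30.2, and 17.2 and 26.4 (4.43, edgeR adjusted p = 0.000786). The MOZ-TIF2 libraries lay within the fresh ones in Chn2 and below them in Ndst2, and the peaks lay 231 and 211 bp from the genes' own starts. Among genes that fell, Smad3 was at 1.86 and 1.18 in differentiated, 36.2 and 40.0 in fresh and 9.78 and 12.3 in MOZ-TIF2 cells (-4.65, edgeR adjusted p = 0.000923). Il12a, a subunit gene of interleukin 12, was at 0.0955 and 0.104 against 16.9 and 8.38 (-6.91, edgeR adjusted p = 0.00532). Rhou, a small GTPase gene, was at 0.0955 and 1.14 against 20.6 and 26.1 (-5.16, edgeR adjusted p = 0.00909), a call lost without either fresh library.

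Among regulators of the myeloid programme, Spi1 and Runx1 were near unpartnered peaks. They are 2 of 11 granulocyte regulator genes, beside 6.24% of all coding genes, and 5 were near a shared peak (Myb, Gfi1, Cebpa, Cebpb and Cebpd). Spi1, encoding the master myeloid factor PU.1, was at 223 and 240 CPM in MOZ-TIF2, 150 and 133 in fresh and 134 and 105 in differentiated cells, with a 2500 bp peak across the lower end of the gene (chr2:91082052-91084551). MOZ-TIF2 cells were above both other groups, but the difference passed the test against differentiated cells (log2 0.95, edgeR adjusted p = 0.0225) and not against fresh cells (0.71, adjusted p = 0.0612). The former call was lost without MOZ-TIF2 replicate 2, without differentiated replicate 2 and without either fresh library. Runx1, a core haematopoietic factor, was at 61.4 and 78.6 against 81.4 and 74.8 in fresh and 546 and 517 in differentiated cells (-2.93 from differentiated, edgeR adjusted p = 0.000749), with a 2250 bp peak 473 bp from a start.

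Some partners and cofactors of the fusion were among the genes near these peaks. Of 15 genes of the MOZ complex and its cofactors 3 were near an unpartnered peak alone (Kat6a, Ncoa1 and Men1, beside 6.24% of all coding genes), Crebbp was near one beside another Ty1 peak, and 7 were near a shared peak, Ncoa2 among them. Kat6a, the gene of MOZ itself, was at 82.9 and 109 CPM in MOZ-TIF2, 50.4 and 61.1 in fresh and 175 and 122 in differentiated cells. Its difference from fresh cells did not pass the test (log2 0.78, edgeR adjusted p = 0.0838), and how far reads of the introduced fusion were counted for it was not tested. Ncoa1, a paralogue of TIF2, was at 23.3 and 29.8, 17.9 and 17.3, and 6.97 and 4.81 (2.18 from differentiated, edgeR adjusted p = 0.00487). Men1, encoding the menin adaptor, ranged only from 58.1 to 71.8 over the 6 libraries, and its peak lay 92 bp from the start of Map4k2.

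Replication genes were among the cell cycle genes near unpartnered peaks. Of 20 listed, 3 were near one alone, 2 more beside another Ty1 peak (Mcm7 and Ccnb1), and 8 near a shared peak, and 2 of the 20 fell and 0 rose in MOZ-TIF2 against fresh cells (median log2 difference -0.40, beside 0.00 over all genes), near the background of 12.4% lower. The 2 that fell were both among the 3, and the number that fell was 5, with 1 that rose, with either differentiated library left out, 1 without MOZ-TIF2 replicate 2 or fresh replicate 1 and 0 without fresh replicate 2. Ccne1, the cyclin E1 gene, was at 24.8 and 22.4 CPM in MOZ-TIF2, 87.6 and 99.8 in fresh and 8.74 and 11.2 in differentiated cells (-1.99 from fresh, edgeR adjusted p = 0.0037). Pcna was at 282 and 193, 546 and 533, and 174 and 271 (-1.18, edgeR adjusted p = 0.0424), a call also lost without MOZ-TIF2 replicate 2, and Cdk1 read 144 and 114 against 119 and 146 (-0.04, edgeR adjusted p = 0.957).

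The genes with the highest CPM in MOZ-TIF2 cells near unpartnered peaks were mostly of translation and RNA processing. Rpl4, a large ribosomal subunit gene with a 1300 bp peak over its start, was at 1783 and 2106 CPM against 2643 and 2394 (log2 -0.37, edgeR adjusted p = 0.355). Hnrnpa1, a splicing factor gene, was at 941 and 700 against 1212 and 1184 (-0.55, adjusted p = 0.32 by edgeR), and Eef1g, an elongation factor gene, at 1019 and 656 against 1542 and 1406 (-0.82, adjusted p = 0.142 by edgeR). In all 3 the fresh libraries lay above both MOZ-TIF2 libraries although the test was not passed. Mbnl1, a splicing regulator gene with a 2700 bp peak 1222 bp from a start, was at 2013 and 1945 against 384 and 559 (2.07, edgeR adjusted p = 0.00898). Laptm5, a lysosomal membrane protein gene of blood cells, was at 935 and 1079 against 691 and 587 (0.66, adjusted p = 0.118 by edgeR) and 3523 and 3798 in differentiated cells (-1.86, adjusted p = 0.00524).

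A 2200 bp peak on chromosome 13 (chr13:23573902-23576101) lay by 3 of 4 replication histone genes near unpartnered peaks, so these share 1 region. Their messages are largely without poly(A) tails and the libraries were poly(A) selected. None of the 4 passed the test between MOZ-TIF2 and fresh cells, and Hist1h2bg, with the largest difference, read 0.437 and 0.904 CPM against 4.06 and 3.84 (log2 -2.55, edgeR adjusted p = 0.164). Tfrc, the transferrin receptor gene, was the 1 of 12 erythroid list genes near an unpartnered peak, beside 6.24% of all coding genes. It read 424 and 328 in MOZ-TIF2, 182 and 238 in fresh and 104 and 53.8 in differentiated cells (2.25 from differentiated, edgeR adjusted p = 0.00865).

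For several lists no gene was near an unpartnered peak, which for lists this short is close to the 6.24% of all coding genes and no result about the programmes. Of 12 primary granule genes 0 were, while 7 were near a shared peak (Mpo, Elane, Prtn3, Ctsg, Prss57, Calr and Igfbp4). Among 13 retinal determination genes 0 were, with Six4 and Eya3 among those near shared peaks, and among 18 HOXA and MEIS genes only Pbx2 was, 4158 bp from its peak and beside another Ty1 peak. Likewise 0 of 16 stem and progenitor, 12 B lymphoid, 12 T and NK, 14 monocyte and macrophage, 10 dendritic and class II and 14 chemokine and cytokine receptor genes were. The 5 primary granule markers summed to 15396 and 8989 CPM in MOZ-TIF2 and 6653 and 9184 in fresh cells, against 25.5 and 234 in differentiated cells.

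Of the 38 near genes with 2 unpartnered peaks 34 were tested, and 6 were higher and 0 lower in MOZ-TIF2 than in fresh cells (median log2 difference 0.14). Over all tested genes 11.3% were higher and 12.4% lower. Against differentiated cells 7 were higher and 4 lower, beside 13.3% and 16.2% of all. In differentiated against fresh cells 5 were higher and 8 lower, beside 21.0% and 19.7%. Whether these few genes differ from the rest was not tested. All 38 tie at 2 peaks, so the 8 named here are the first tested ones by symbol, Abcb10, Camk2g, Cd151, Cd81, Chfr, Cnep1r1, Coasy and Ddx56, and none of these 8 passed the test between MOZ-TIF2 and fresh cells. Against differentiated cells Camk2g, a calmodulin kinase gene, was lower at 33.3 and 31.6 against 87.2 and 68.7 CPM (log2 -1.26, edgeR adjusted p = 0.00792), and so was the tetraspanin gene Cd151 at 17.3 and 15.8 against 48.2 and 47.5 (-1.53, edgeR adjusted p = 0.00436). Coasy, encoding coenzyme A synthase, was higher at 39.5 and 48.7 against 27.6 and 26.1 (0.72, edgeR adjusted p = 0.0423), as was the RNA helicase gene Ddx56 at 87.0 and 55.2 against 28.3 and 39.6 (1.07, edgeR adjusted p = 0.0397). The last 2 calls were lost in fits without 1 library, each in 5 of 6.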

How the data were processed

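The peak lists and the gene counts are used as deposited. Per the submitters' processing notes, the tools were Bowtie2, Salmon 0.13.0 and Cell Ranger 3.0.0 with GRCm38 and mm10, with no role given. The peak caller and its threshold are not given in the sources used here. The RNA matrix holds deposited estimated counts per gene, which need not be whole and were rounded. Libraries were strand-specific and poly(A) selected, per the labels' protocols. Peak starts are printed as the listed start plus 1, so a position may be off by 1 bp.

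Gene starts came from RefSeq windows (GRCm38.p6, none for chromosome 18) and gene ends from RefSeq spans, which located 29759 matrix genes, 14748 of the 15224 tested. Counts were tested with edgeR 4.0.16 (R 4.3.3; TMM, filterByExpr, quasi-likelihood F test, two-sided, Benjamini-Hochberg over all tested genes at 0.05) in 1 fit of 6 libraries in 3 groups. The fit was tested on simulated data. DESeq2 1.42.0, other scalings, no filter, 2-group fits, a replicate block and fits without each library were alternatives. Peaks have 1 list per ChIP replicate, so their classes are described with 95% Wilson intervals, which cover counting error only.

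In each comparison the text names the called near genes with the largest log2 differences, 8 in each direction, given at least 10 CPM in the higher group, groups that do not overlap and an ordinary symbol. Listed genes near an unpartnered peak, 8 of the 38 near genes tied at the most such peaks, taken by symbol, and the 5 with the highest CPM in MOZ-TIF2 cells were added. Genes at whose start a named gene's peak lay, and genes of the widest peaks and dense stretches, are given beside them. The members, lists and rules were chosen with earlier results of these data known. Some genes that these rules select are not reported here.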

Additional observations from a re-analysis of the deposited data

How the results depend on the processing

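Calling a peak shared only where replicate 1 covered at least 50% of it gave 1842 unpartnered peaks with a median width of 600 bp. A listed start lay within 1 kb of 73.0% and within 50 kb of 90.4% of the unpartnered peaks, and either gene end, an alternative chosen after seeing the data, within 5 kb of 89.8%. In MOZ-TIF2 against fresh cells DESeq2 called 5090 of all 15224 tested genes and 418 near genes (247 higher, 171 lower), 270 of the 271 of edgeR among them. With the replicate number as a block the calls were 144 near genes and 2094 of all genes. Same-numbered libraries deviated with r of -0.089, -0.0811 and -0.00788 between groups. Each group gives only 1 difference between 2 libraries, so these values cannot exclude a pairing, which the labels do not settle. In the other 2 comparisons the block gave 278 and 403 near genes, and 3284 and 4678 of all genes. A fit of the 2 groups alone called 250 near genes and 3061 of all genes in MOZ-TIF2 against differentiated cells. Leaving out 1 library gave 14 to 258 near genes and 374 to 3531 of all genes in MOZ-TIF2 against fresh cells. The same ranges were 206 to 370 and 2411 to 4278 against differentiated cells, and 99 to 617 and 1259 to 6869 in differentiated against fresh cells. The cause was not tested. A lone library left in a group is assumed to vary like the other groups. No named log2 difference was called with the opposite sign in any alternative. Gene-list counts without 1 library were added after seeing the data. The lists hold no peak height, so the depth behind a peak is unknown, and 2 libraries a group limit every call.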
